A study of Rattus norvegicus with 547 samples.

Results

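Acetamide (AA in the labels) and methylcarbamate (Mcarb), a pair of small water-soluble amides, were followed in cultured rat hepatocytes at matched concentrations. They took 36 arrays, 18 for each compound, beside 511 other arrays of the series, and were found by the compound named in the array titles. Each compound was applied for 24 h at a low level of 111.1 µM, a middle level of 333.3 µM and a high level of 1000 µM. At every level 3 treated cultures were set against 3 solvent controls of the same level, numbered 1 to 3 like the treated ones. The labels used here do not name the solvent.

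The hepatocytes came from male Wistar rats, whose age is not given in the sources used here, and were kept as sandwich cultures. A dish had 6 wells, of which 3 received the compound and 3 the solvent. Each of the 29 compounds of the series was tested in cells of 3 rats isolated on separate days, and freshly settled cells were also collected before any incubation. The labels do not say whether cultures with the same number came from the same rat or whether 1 rat served several levels. The p-values below therefore measure the spread between numbered dishes, not necessarily between animals.

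Acetamide is the amide of acetic acid, and amidases of the liver can split it into acetate and ammonia. Methylcarbamate is the methyl ester of carbamic acid. It carries a methoxy group on the carbonyl where acetamide carries a methyl group, and the rest of the molecule is shared. Both compounds are known as liver carcinogens of rats fed large amounts for long times, and the submitters list both as non-genotoxic, the class of compounds held to cause tumours without attacking DNA directly. Hepatocytes answer many such compounds by inducing drug-metabolising enzymes or by losing transcripts of liver functions.

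The arrays give a log2 signal for each of 31042 probe sets, groups of short oligonucleotides that read transcripts, after 57 manufacturer control probe sets were left out. No table used here gives the gene of a probe set, so different probe sets may read the same or related transcripts. Results are given by probe set identifier, and neither the hepatocyte label nor any pathway could be set against marker genes. Beta-actin, GAPDH and hexokinase are the exceptions, since the array carries control probe sets named for them. In these bulk cultures, fewer cells of a type and less RNA per cell cannot be told apart.

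The median log2 signal of an array was 5.503 to 5.683, and no 2 of the 36 arrays held the same values (highest correlation 0.9963). A bacterial spike-in transcript, bioC, had a signal of 8.16 to 10.4 on 31 arrays and of 3.82 to 4.43 on 5 of the 6 methylcarbamate high arrays. The treated array numbered 2 was the only one of those 6 that carried it. The first principal component, with 24.2% of the variance, placed the 12 acetamide middle and high arrays at −29.7 to −18 and the other 24 arrays at −9.82 to 25.2. The acetamide low cultures therefore lay with the methylcarbamate cultures and away from the other acetamide cultures, treated and control arrays alike.

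Single probe sets drew the same line much more sharply. Over the 36 arrays, 22 probe sets had an empty stretch of at least 1.5 log2 units between a lower and an upper class of arrays. In 15 of them the same 13 arrays stood on one side: all 12 acetamide middle and high arrays and the methylcarbamate high control numbered 1. The 13 arrays were the lower class in 14 of these probe sets and the upper class in 1, and the empty stretches were 1.65 to 6.03 wide. In 5 others the methylcarbamate high treated array numbered 1 stood alone on the lower side, and in 2 the treated array and control numbered 3 did. That treated array 1 also had the highest median signal of the 36, 5.683. The 22 probe sets were chosen after their values were seen and are described without a test.

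Probe set 1371209_at had the widest gap. Its log2 signal was 9.953, 9.847 and 9.642 in the acetamide low treated cultures, against 10.21, 10.65 and 10.14 in their controls. At the middle level it was 3.141, 2.924 and 3.13 in treated cultures and 3.023, 3.116 and 3.07 in controls, and at the high level 3.243, 3.098 and 2.981 in treated cultures and 3.003, 3.104 and 3 in controls. The step lay between the low level and the other 2 and was there with and without the compound. In methylcarbamate high cultures the same probe set read 10.19, 9.851 and 10.79 with the compound and 2.835, 10.04 and 10.64 in controls, so that control 1 alone was about where the acetamide middle and high arrays were. Probe set 1370428_x_at repeated this, with 11.8, 12.55 and 12.55 in methylcarbamate high treated cultures and 4.732, 12.33 and 12.39 in their controls. Probe set 1393108_at was the inverse case, with 6.095, 5.711 and 6.221 in treated cultures and 10.55, 6.214 and 6.709 in controls.

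The treated and control arrays numbered 1 of methylcarbamate high thus stood on opposite sides of the gap. Among all 256 dishes of the series with both arrays, the 2 arrays lay on opposite sides in 6 for 1371209_at, in 4 for each of 1370428_x_at, 1370988_at and 1389990_at, and in 29 for 1388255_x_at. Another probe set, 1387825_at, was low in both arrays of 1 same-numbered pair. It read 3.483 in methylcarbamate high treated culture 3 and 2.696 in control 3, against 8.04 to 10.3 on the other 34 arrays. What sets the classes apart was not tested. The calls and named probe sets of methylcarbamate high are given below with and without dish 1, and its interval shares, correlations and list medians with dish 1 only.

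**Figure D1:**
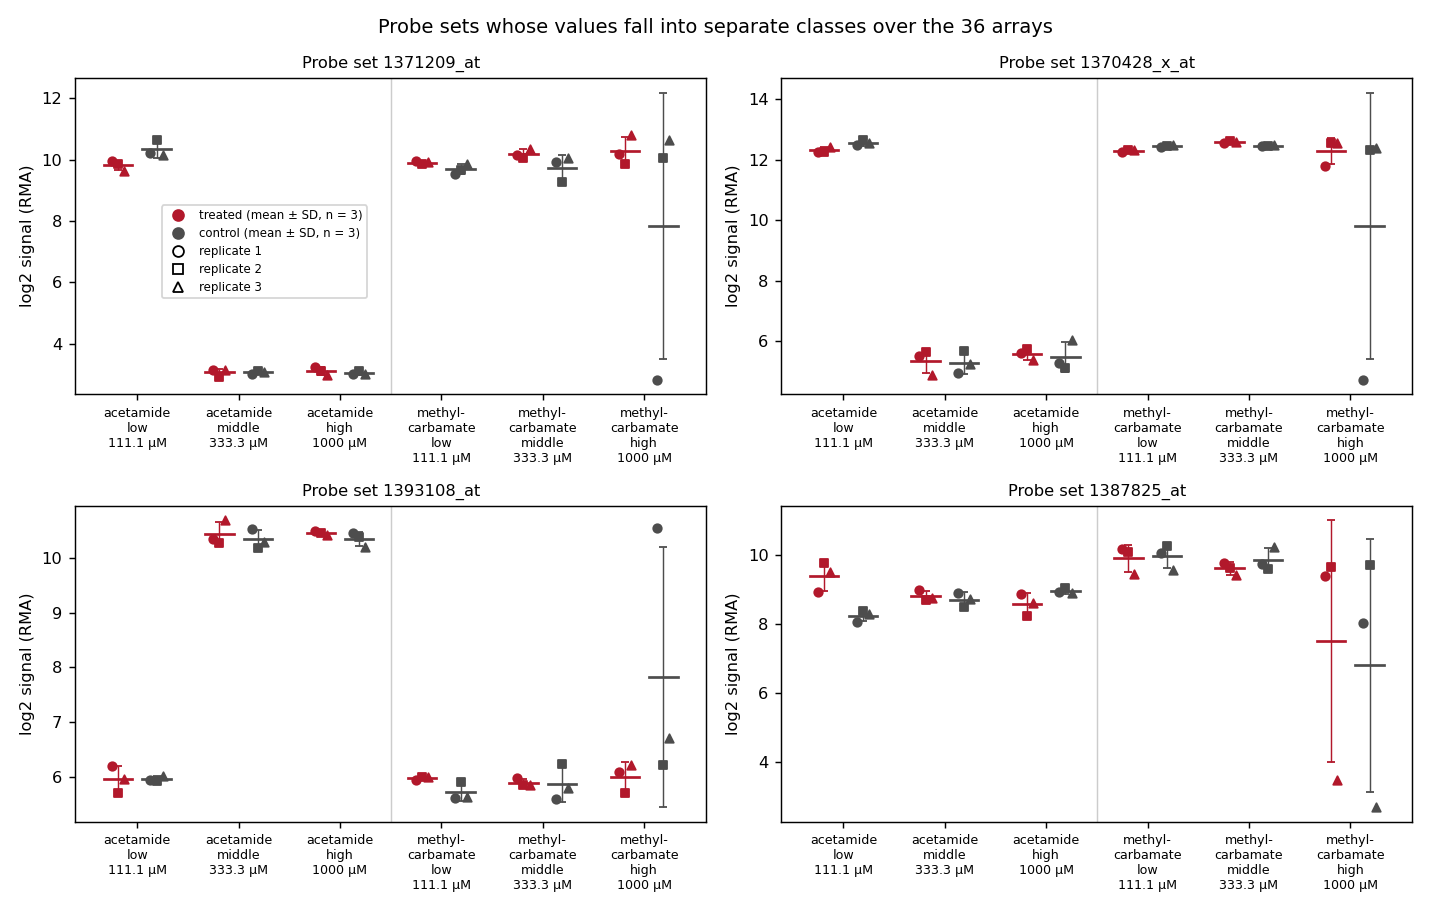
Log2 signal (RMA) of 4 probe sets in all 36 arrays, by compound and level from low to high, with treated cultures (red) left of solvent controls (grey); symbols mark the replicate number, horizontal lines the mean and error bars the SD of 3 arrays. Acetamide middle and high arrays and 1 methylcarbamate high control share a class in 1371209_at, 1370428_x_at and 1393108_at, and in 1387825_at treated culture 3 and control 3 of methylcarbamate high are both low.

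Whether either compound changed transcript levels was asked at each level by subtracting, for each number, the control array from the treated array and testing the mean of the 3 differences with limma, with p-values adjusted by Benjamini-Hochberg over all 31042 probe sets. A probe set was called at an adjusted p under 0.05. With acetamide at the low level 204 probe sets were called (0.657% of those tested), of which 158 rose (0.509%) and 46 fell (0.148%). The controls of that level stood apart from most others, as described below. At the middle and high levels of acetamide none was called (0% of those tested at each). For methylcarbamate none was called at the low, middle or high level (0% at each). The acetamide low count was 0 without acetamide replicate 3 and 1 without replicate 2. With array weights, which gave methylcarbamate low dish 2 a weight of 6.03 and the other 17 dishes at most 2.08, the counts were 1055 at acetamide low, and 4992, 9 and 0 at methylcarbamate low, middle and high. At an unadjusted p under 0.05, acetamide had 3907 probe sets at the low, 1008 at the middle and 1166 at the high level, and methylcarbamate had 1141, 3068 and 2325 in that order, and 5% of the probe sets tested is 1552.1.

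The size of the changes that these arrays could have missed was bounded by their intervals, each set for 1 probe set without adjustment. At the high level of acetamide, no probe set had an estimated change beyond 2-fold in either direction. The largest estimated rise was 0.74 and the largest fall −0.72 on the log2 scale, and the 95% confidence interval lay wholly within 2-fold for 99.7% of probe sets. The matching shares were 99.8% at the middle level of acetamide, and 99.9%, 99.6% and 99.6% at the low, middle and high levels of methylcarbamate. Within 1.41-fold it lay for 88.6% at acetamide high and 85.4% at methylcarbamate high, so smaller changes are less well bounded. These shares run over all 31042 probe sets, of which 19315 had a mean signal of at least 5 over the 36 arrays. In probe sets of low signal a change may not show, and a narrow interval bounds it less there.

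**Figure D2:**
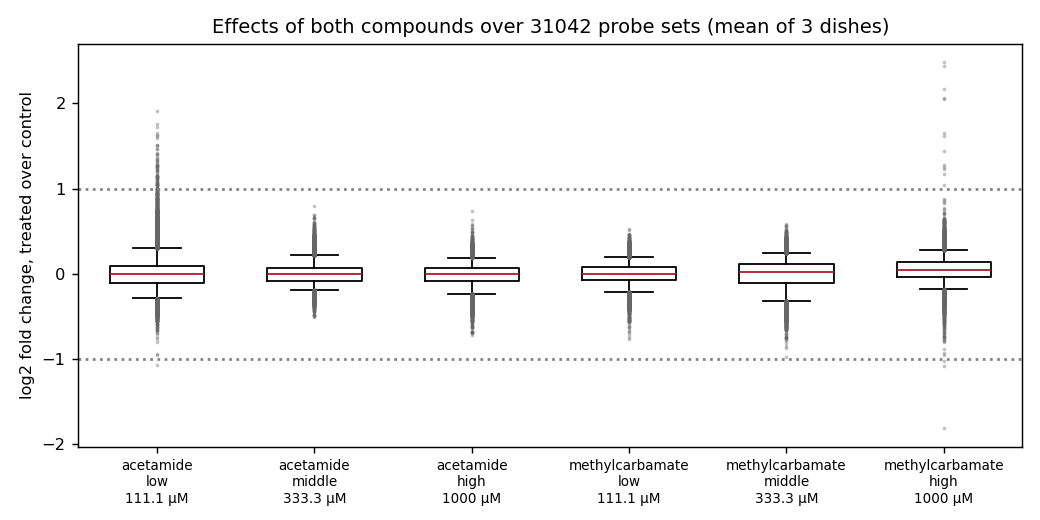
Log2 fold change, treated over control, of 31042 probe sets for each compound from its low to its high level; boxes run between the quartiles with the median in red, whiskers the 5th to 95th percentiles, points the rest, and dotted lines mark 2-fold. Points beyond 2-fold are seen with low acetamide (74 probe sets) and high methylcarbamate (16 probe sets) and at no other level.

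The probe sets of smallest p at 1000 µM acetamide, named by a fixed rule, did not pass the adjustment. Probe set 1388521_at had log2 signals of 6.53, 6.6 and 6.57 with acetamide and of 5.89, 6.04 and 6.04 in controls, a difference of 0.58 ± 0.14 (SE, 3 dishes, limma adjusted p = 1). Its treated and control arrays did not overlap, but its differences at the low and middle levels were 0.08 and −0.17. Probe set 1378883_at read 5.21, 4.99 and 5.69 with acetamide and 5.61, 6.06 and 5.87 in controls, a difference of −0.55 ± 0.14 (limma adjusted p = 1), and these arrays overlapped.

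At 1000 µM methylcarbamate, probe set 1397944_at read 6.44, 6.8 and 6.58 in treated cultures and 5.96, 5.83 and 6.15 in controls, a difference of 0.63 ± 0.12 (SE, 3 dishes, limma adjusted p = 0.409). Probe set 1370751_at read 10.78, 10.21 and 10.51 in treated cultures and 11.53, 10.98 and 11.19 in controls, a difference of −0.74 ± 0.15 (limma adjusted p = 0.409). Neither pair of groups overlapped, and neither passed the adjustment. Without dish 1 the differences were 0.70 for 1397944_at and −0.73 for 1370751_at (limma adjusted p = 0.668 for both).

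High methylcarbamate had 16 probe sets with an estimated change beyond 2-fold, 13 upwards and 3 downwards, and none was called. All 16 were beyond 2-fold in dish 1 and within 2-fold in dishes 2 and 3. Of the 16, 13 belonged to the 15 probe sets of the class shared with the acetamide middle and high arrays. For 1370428_x_at the differences of dishes 1, 2 and 3 were 7.07, 0.22 and 0.16, and for 1393108_at they were −4.46, −0.50 and −0.49. With dish 1 left out, 2 other probe sets were beyond 2-fold and none was called. With dish 3 left out, whose control stood apart in the way described next, 52 were called.

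The acetamide low calls came with an unusual set of controls. Averaged over the 158 probe sets that rose, the log2 signal was 8.63 to 8.91 in the 3 treated cultures and 7.63 to 7.98 in their 3 controls. The other 15 controls of both compounds read 7.77 to 9.15, and 14 of them, all but methylcarbamate high control 3 at 7.77, read 8.70 to 9.15. Over the 46 probe sets that fell, treated cultures read 7.14 to 7.18 and their controls 7.66 to 7.85, while the same 14 other controls read 7.01 to 7.46. On both lists, chosen for this very difference, the treated cultures lay where the other controls lay or close to it, and the low controls lay apart.

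Counted probe set by probe set, the treated mean was inside the range of the other 15 controls for 199 of the 204 called probe sets and the control mean for 107. Over all 31042 probe sets, these counts were 29924 and 28112. The treated mean was the nearer of the 2 to the mean of the other controls for 190 of the 204, and for 17720 of all 31042 probe sets. The difference between the mean of the rises and the mean of the falls was 1.44 to 1.74 in the treated cultures and −0.06 to 0.26 in their controls. Among 238 controls of the other 27 compounds, 9 (3.78%), from 6 compounds, were as low as the acetamide low controls.

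**Figure D3:**
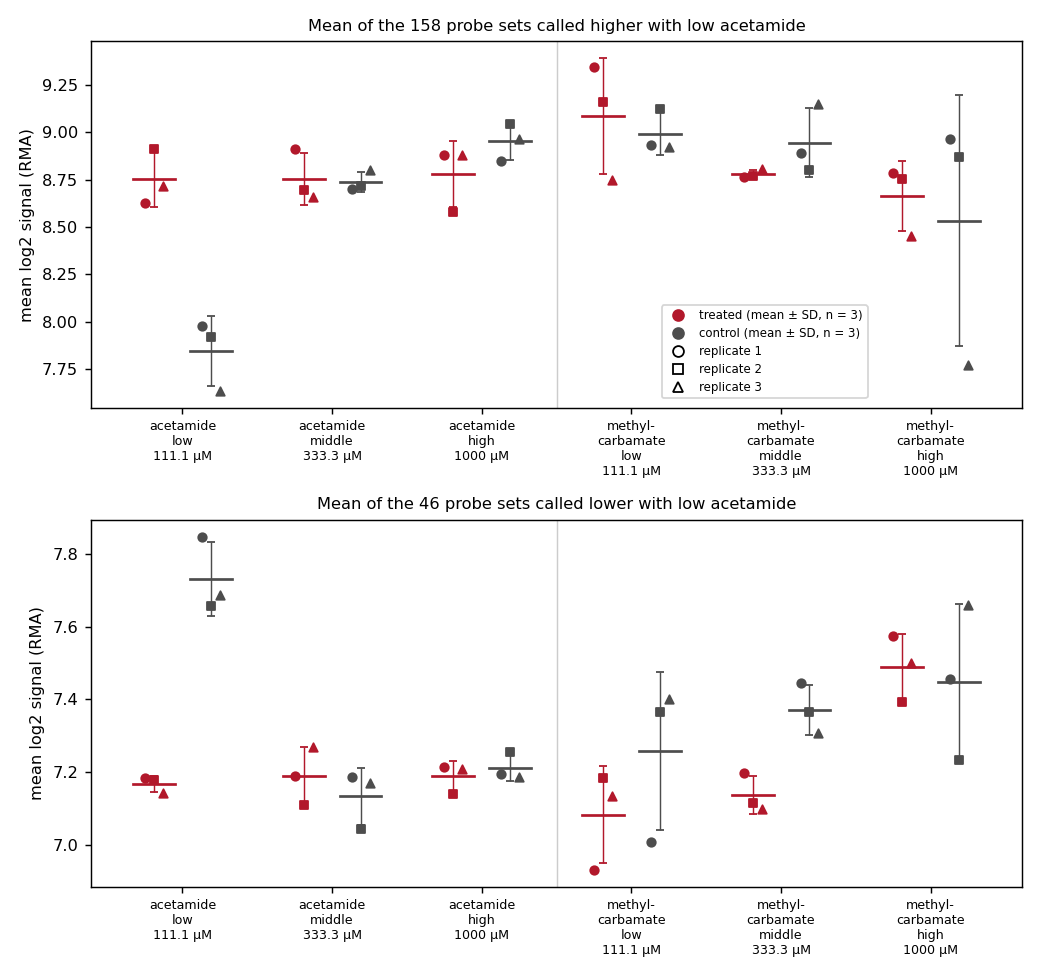
Mean log2 signal (RMA) of the 158 probe sets called higher (top) and the 46 called lower (bottom) with low acetamide, in each of the 36 arrays, treated (red) left of control (grey), with mean ± SD of 3 arrays; the lists were chosen on the low acetamide difference. The 3 low acetamide controls (7.63 to 7.98 in the top panel) and methylcarbamate high control 3 (7.77) sit below the other controls, which read 8.70 to 9.15.

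Probe set 1388989_at had the largest called rise. It read 11.7, 11.82 and 11.62 with low acetamide and 10.09, 9.87 and 9.47 in the low controls, a difference of 1.90 ± 0.27 (SE, 3 dishes, limma adjusted p = 0.00462). At the middle and high levels its differences were not called, its treated cultures read 11.86 to 12.28 and its controls 12.06 to 12.36. All 9 methylcarbamate treated cultures read 11.54 to 12.35, and their controls 11.71 to 12.1 with the exception of high control 3 at 10.08. The low acetamide treated cultures thus sat at the lower edge of most controls, and 4 controls sat well below it, at 9.47 to 10.09.

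Probe set 1388882_at followed the same course, with 5.95, 6.82 and 6.28 in treated cultures and 4.89, 4.63 and 4.26 in controls, a rise of 1.76 ± 0.40 (limma adjusted p = 0.0442). Among the falls, 1385852_at read 4.59, 3.87 and 4.03 with low acetamide and 5.54, 5.43 and 4.75 in controls, a difference of −1.07 ± 0.17 (limma adjusted p = 0.00779). The other 15 controls spanned 3.89 to 5.63 for this probe set, and 1 treated culture lay just below that range. Probe set 1387391_at read 9.53, 8.79 and 9.56 with low acetamide and 10.31, 9.76 and 10.67 in controls, a difference of −0.95 ± 0.21 (limma adjusted p = 0.0439), and the groups did not overlap.

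Setting the acetamide low treated cultures against other controls, a step added after these values were seen and without pairing by number, left few of the calls. Against their own 3 controls without pairing, 81 probe sets were called, and they included 76 of the 204. Against the 6 methylcarbamate middle and low controls, which share the class of the acetamide low arrays in the 15 probe sets above, 28 probe sets were called in all (0.0902% of those tested). Of the 204, 2 were among them in the same direction and none in the opposite one, and the median change of the 158 rises was −0.22. Against the 6 acetamide middle and high controls, which lie in the other class, 2874 were called (9.26% of those tested), with 11 of the 204 in the same direction and 24 in the opposite one.

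Controls were also set against each other. Acetamide low controls against the 6 methylcarbamate middle and low controls gave 2590 calls (8.34% of those tested), and against the 6 acetamide middle and high controls 5126 (16.5% of those tested). Acetamide high against acetamide middle controls gave none (0% of those tested). Without pairing, then, 76 of the 204 calls held against the low cultures' own controls, 2 against the methylcarbamate controls and 11 against the other acetamide controls. Against the methylcarbamate middle and low controls, the low treated cultures gave 28 calls and the low controls 2590. Against the acetamide middle and high controls the counts were 2874 and 5126. Why the low controls gave more calls than the low treated cultures was not tested.

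Whether the effect of acetamide grew with its concentration was tested by subtracting the low from the high effect. Of 31042 probe sets, 5 were called (0.0161% of those tested), and all 5 were lower at the high than at the low level. They were 1368733_at (−2.18 ± 0.26), 1393403_at (−1.66 ± 0.22), 1392449_at (−1.62 ± 0.25), 1389558_at (−1.42 ± 0.21) and 1390534_at (−1.33 ± 0.22), with limma adjusted p-values of 0.00107, 0.00403, 0.0145, 0.011 and 0.0336 in that order (SE over 3 dishes a level). The first of them read 6.24, 6.45 and 6.51 with high acetamide and 6.47, 7.33 and 6.99 in high controls, and 6.25, 5.88 and 6.51 with low acetamide and 4.64, 4.48 and 4.57 in low controls. Its treated cultures overlapped between the levels, while all low controls lay below all high controls. For 1389558_at the treated cultures differed as well, with 5.01, 4.99 and 5.39 at the high and 5.53, 5.94 and 5.6 at the low level, while the high controls read 5.57, 5.77 and 5.87 and the low controls 4.99, 4.81 and 4.83. No probe set stayed called without pairing, or without acetamide replicate 2 or 3. No probe set was called for methylcarbamate high minus low (0% of those tested), with 1964 at an unadjusted p under 0.05.

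Averaging the 3 levels put 9 dishes behind each value, taken as independent although levels may share a rat. Acetamide then changed no probe set (0% of those tested, 1506 at an unadjusted p under 0.05) and methylcarbamate changed 1 (0.00322% of those tested), 1392264_s_at, by −0.59 ± 0.083 (SE, 9 dishes, limma adjusted p = 0.0147). It read 6.01, 5.8 and 5.8 with low methylcarbamate and 6.21, 6.54 and 6.54 in controls. At the middle level it read 5.7, 5.63 and 5.7 in treated cultures and 6.47, 6.33 and 6.46 in controls, and at the high level 6.61, 6.47 and 6.34 in treated cultures and 7.66, 6.69 and 6.48 in controls. It was lower in 9 of 9 dishes, and at the low and middle levels the groups did not overlap. With high dish 1 left out, it was −0.49 (limma adjusted p = 0.0206). The call was lost without pairing (limma adjusted p = 0.141) and when 1 acetamide replicate, or methylcarbamate replicate 2 or 3, was left out (limma adjusted p = 0.0515 to 0.358).

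The same probe set was also lower in all 9 acetamide dishes. It read 5.93, 5.81 and 5.95 with low acetamide and 6.08, 5.83 and 6.42 in controls. At the high level it read 7.42, 7.46 and 7.56 with acetamide and 7.81, 8.05 and 7.98 in controls. Its average over the levels of acetamide was −0.31, which did not pass the test (limma adjusted p = 0.98), and the averages of the 2 compounds differed by 0.28 (95% confidence interval 0.03 to 0.52, limma adjusted p = 0.942). Probe set 1368519_at came next for methylcarbamate, at −0.59 ± 0.10 (limma adjusted p = 0.122), and stood at −0.30 for acetamide. Both had a higher signal in the acetamide middle and high arrays than in the acetamide low arrays, with and without the compound, and the methylcarbamate high control 1 was their highest methylcarbamate array.

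**Figure D4:**
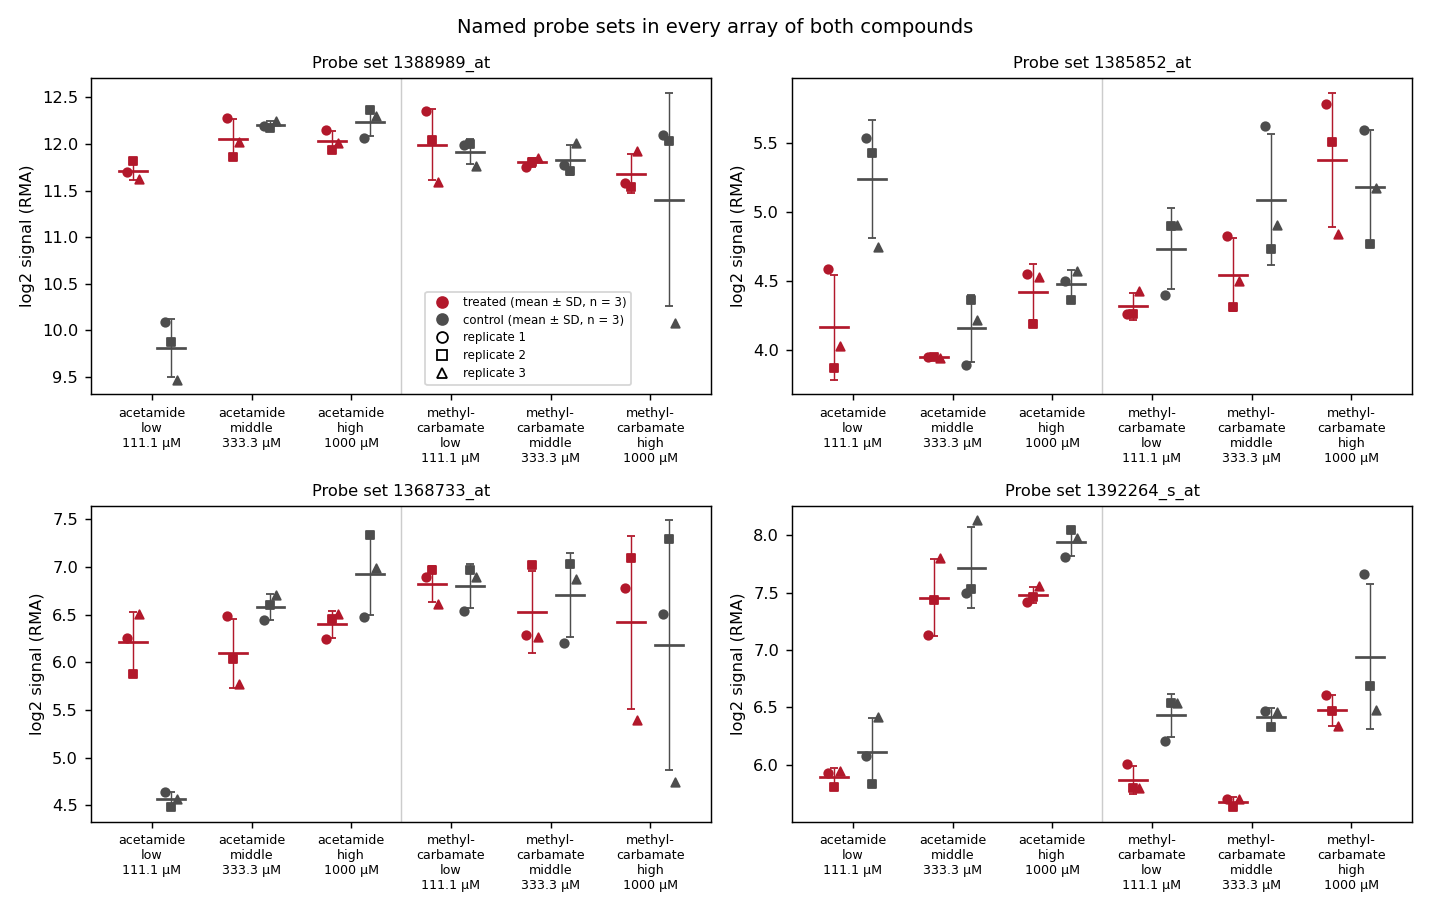
Log2 signal (RMA) of 4 named probe sets in all 36 arrays, by compound and level from low to high, treated (red) left of control (grey), with mean ± SD of 3 arrays and symbols for the replicate number. In 1388989_at and 1368733_at the low acetamide controls are low while the treated cultures lie near the other arrays; 1392264_s_at is lower with methylcarbamate in all 9 dishes.

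The 2 compounds were compared directly at the 3 matched concentrations, which made 3 pairs, with p-values adjusted over the probe sets of all 3 pairs together. No probe set passed for a difference between acetamide and methylcarbamate at the low, middle or high level (0% of those tested at each), although array weights gave 412, 191 and 20 calls in that order. The smallest adjusted p was 0.23, and 1618, 3155 and 2013 probe sets had an unadjusted p under 0.05 at the low, middle and high levels. No difference between the methyl and the methoxy compound passed, which does not show that they act alike. The 95% confidence interval of the difference lay within 2-fold for 97.4% of probe sets at the low, 95.9% at the middle and 97.1% at the high level. It lay within 1.41-fold for only 52.7%, 45.7% and 51.3%, so that differences of that size are not bounded for about as many. Here too, a change may not show in probe sets of low signal.

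The difference of smallest p among the named probe sets at 1000 µM was that of 1370751_at. Acetamide cultures read 10.42, 10.62 and 10.48 and their controls 9.81, 10.2 and 9.93, whereas methylcarbamate cultures read 10.78, 10.21 and 10.51 and their controls 11.53, 10.98 and 11.19. The treated cultures of both compounds overlapped, and the controls of the 2 compounds differed by over 1 log2 unit. Acetamide minus methylcarbamate was 1.26 (95% confidence interval 0.81 to 1.71, limma adjusted p = 0.23), and 1.25 without methylcarbamate high dish 1 (limma adjusted p = 0.322). Probe set 1367896_at had a difference of −1.13 (interval −1.67 to −0.59, limma adjusted p = 0.498). Its high methylcarbamate cultures read 9.52, 9.62 and 7.64 and their controls 8.12, 9.46 and 6.66, so that dish 3 was low on both sides. Without methylcarbamate high dish 1 the difference was −0.85 (limma adjusted p = 0.37). With the levels averaged, no probe set differed between the compounds (0% of those tested, 1383 at an unadjusted p under 0.05), and the interval lay within 2-fold for 99.9%.

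**Figure D5:**
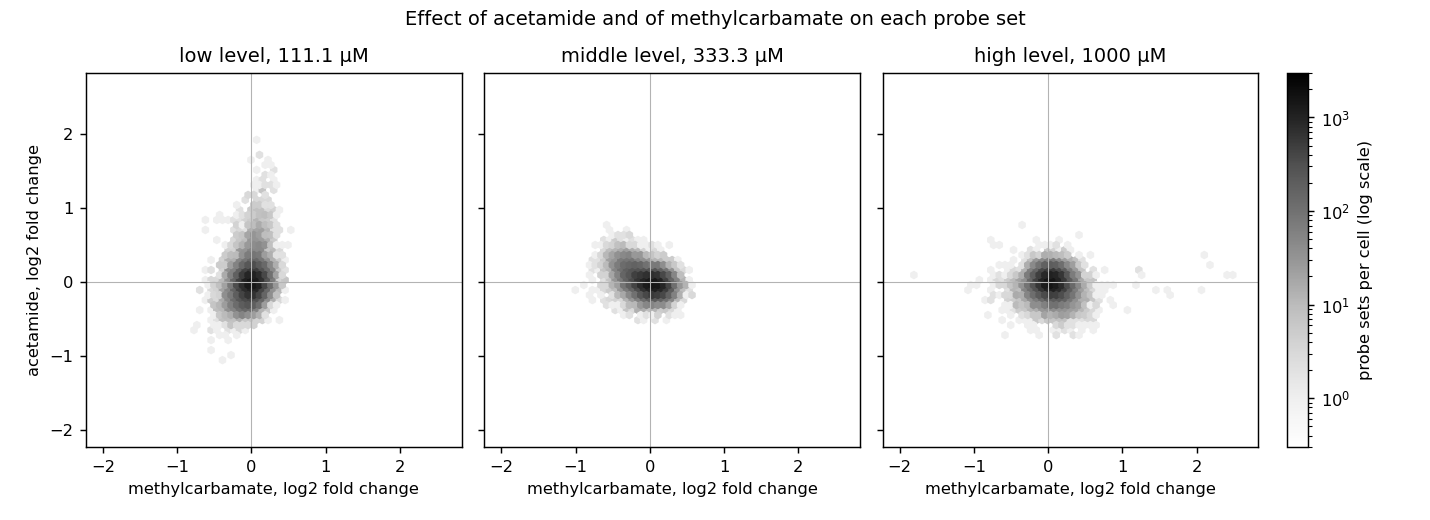
Log2 fold change of each of 31042 probe sets with acetamide (vertical) against that with methylcarbamate (horizontal) at 111.1, 333.3 and 1000 µM; grey shades give the number of probe sets per cell on a log scale. The upward tail at the low level belongs to low acetamide, and the points right of 1 and left of −1 at the high level are methylcarbamate probe sets whose size comes from dish 1.

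Effects of different levels of 1 compound, which share no arrays, were hardly alike. Across 31042 probe sets, which are not independent, Pearson's r between acetamide effects was 0.05 for low and middle, −0.15 for low and high and −0.22 for middle and high. For methylcarbamate it was 0.18 for low and middle, −0.07 for low and high and 0.01 for middle and high. Between the compounds at the same level it was 0.21 at the low, −0.35 at the middle and −0.07 at the high level. The highest value of all 15 pairs, 0.38, joined acetamide high with methylcarbamate middle, 2 conditions that share neither compound nor concentration. These values are descriptions.

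Beside the other compounds of the series, both compounds had a small spread of effects at the high level. The SD of the high-level effects over probe sets was 0.132 for acetamide and 0.151 for methylcarbamate, which ranked 2 and 3 from the smallest among 28 compounds with a high level, whose median was 0.252. Without dish 1 the SD for methylcarbamate was 0.173, with no rank computed. Thioacetamide, described below, ranked 1 at 0.129 and still had 130 probe sets called, so a small SD does not mean an absent response. At the middle level acetamide ranked 2 and methylcarbamate 9 of 29, and at the low level acetamide ranked 20 and methylcarbamate 4. The SD of the acetamide effects was 0.195, 0.126 and 0.132 at the low, middle and high levels, widest at the level whose controls stood apart.

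Probe sets that answer many compounds were used as a further readout. At least 5 of the other 27 compounds raised 425 probe sets at their highest level and lowered 1569, and neither count uses acetamide or methylcarbamate arrays. On the 425 raised ones, the median log2 change was −0.09, −0.03 and −0.07 at the low, middle and high levels of acetamide, and 0.00, −0.07 and 0.05 for methylcarbamate, with 11 called at acetamide low (9 rises and 2 falls), where 0.657% of all probe sets were called, and none in the other 5 comparisons. On the 1569 lowered ones, it was −0.07, 0.08 and −0.10 for acetamide and −0.05, −0.20 and 0.07 for methylcarbamate, against medians over all probe sets between −0.01 and 0.04, and 11 of them were called at acetamide low (9 rises and 2 falls). At 333.3 µM methylcarbamate, 11.03% of the 1569 lay above 0, against 53.6% of all probe sets, and none was called. At the low and high levels of methylcarbamate, 35.2% and 64.9% of them lay above 0, against 50.3% and 63.4% of all. For acetamide the shares were 39.9%, 68.9% and 22.5% at the low, middle and high levels, against 47.6%, 46.7% and 47.1% of all. With acetamide the share was thus below that of all probe sets at the low and high levels and above it at the middle level. With methylcarbamate it was below at the low and middle levels and about the same at the high level.

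The most widely lowered of these, 1385016_at, fell in 18 of the 27 other compounds. It changed by −0.23, 0.27 and −0.17 at the low, middle and high levels of acetamide, and by −0.32, −0.24 and 0.11 at those of methylcarbamate, with none called. The most widely raised, 1387599_a_at, rose in 14 and changed by −0.12, −0.11 and 0.04 with acetamide and by 0.03, −0.05 and 0.14 with methylcarbamate, again with none called. Its 95% confidence intervals stayed between −0.37 and 0.39 in all 6 comparisons.

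Thioacetamide, which is acetamide with sulfur in place of the carbonyl oxygen and a classical liver toxicant after oxidation of that sulfur, was tested in the series at 8.74, 26.22 and 78.67 µM. Its concentrations differ from those of acetamide, so the values are set side by side without a comparison. In a fit of its own, thioacetamide changed 16 probe sets at its low (0.0515% of those tested), 527 at its middle (1.7%) and 130 at its high level (0.419%). The 73 probe sets that rose at its high level had a median change of 0.49 there, while their medians with acetamide were 0.11, 0.18 and −0.15 at the low, middle and high levels and with methylcarbamate −0.01, −0.32 and 0.11. The 57 that fell had a median of −0.52 with thioacetamide, −0.12, −0.07 and −0.11 with acetamide and 0.02, −0.14 and −0.04 with methylcarbamate.

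Among the thioacetamide probe sets named by the rule, 1387006_at fell by 0.90 ± 0.10 with high thioacetamide (SE, limma adjusted p = 3.7e-05). With acetamide it changed by −0.24, −0.46 and −0.68 at the low, middle and high levels, none of them called (limma adjusted p = 0.659, 0.999 and 1), and with methylcarbamate by 0.03, −0.26 and −0.16, none called. Its acetamide controls read 3.53, 3.36 and 3.8 at the low level and 5.25, 4.96 and 4.92 at the high level. The levels thus started from different signals, and whether this bears on the size of the changes was not tested. Probe set 1376089_at, which rose by 1.03 ± 0.12 with high thioacetamide (limma adjusted p = 0.000138), changed by −0.45, −0.04 and −0.15 with acetamide and by −0.28, −0.21 and 0.35 with methylcarbamate, none called. The other named fall, 1377375_at, changed by −0.01, 0.14 and −0.35 with acetamide, none called. The other named rise, 1367932_at, changed by 0.53, 0.02 and −0.39 with acetamide, none called.

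The 3 named housekeeping genes were the only transcripts that could be given by gene. Beta-actin, a part of the cytoskeleton, averaged 11.07 ± 0.094 in the 9 methylcarbamate treated cultures and 11.18 ± 0.128 in the 9 controls (SD). Its within-dish difference was −0.11 ± 0.093 (SD, 9 dishes) and ranged from −0.27 to −0.01, lower in 9 of 9 dishes (exact two-sided sign-flip permutation test, p = 0.00391, the smallest this test can give, and 0.0235 after adjustment over 6 tests). The test takes the 9 dishes, pooled over the levels, as independent, although levels may share a rat. After quantile normalization beta-actin was lower in 7 of 9 dishes and no longer passed (exact permutation test, adjusted p = 0.188). With 1 replicate number left out the difference was −0.12 to −0.10, over 6 dishes, too few for this test to pass after adjustment. With acetamide, beta-actin averaged 11.05 ± 0.18 in treated cultures and 11.11 ± 0.185 in controls, was lower in 5 of 9 dishes and did not pass (exact permutation test, adjusted p = 0.624). GAPDH, an enzyme of glycolysis, changed by −0.04 ± 0.18 with acetamide and by −0.05 ± 0.12 with methylcarbamate. Hexokinase, which starts glycolysis and is replaced by glucokinase in liver cells, changed by −0.01 ± 0.074 and 0.04 ± 0.13. None of these 4 passed (exact permutation tests, adjusted p = 0.624, 0.624, 0.648 and 0.624 in that order). Hexokinase averaged 4.51 in treated and 4.52 in control cultures of acetamide, and 4.54 and 4.50 for methylcarbamate. These signals lie below the lowest array median of 5.503, where a change may not show.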

How the data were processed

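Total RNA was amplified and biotin-labelled with a 3′ IVT kit and hybridised to 1-colour arrays, per the labels' protocols. The authors deposited log2 signals made by RMA, per the submitters' processing notes; neither its version nor whether all arrays entered 1 run is stated there. The number of arrays limits precision. Treated minus control log2 differences of the same replicate number (18 dishes) were fitted with limma 3.58.1 in R 4.3.3, with 6 group means sharing 1 spread, and averages and differences as contrasts. Benjamini-Hochberg adjustment ran over 31042 probe sets per comparison, and over the 3 compound differences together. The 57 control probe sets were left out, except for the 3 housekeeping genes. The fit was tried on simulated arrays, drawn independently around 1 mean per probe set, without dish pairing, array classes or shifted controls. Of 200 changes set at acetamide high, it called 22.5% at 0.5 log2 units and 98% at 1, with 8 and 10 false calls. For the difference between the compounds at that level it called 0% and 74.5%. The members, lists and tests were chosen with earlier results of these data known.

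Named probe sets were called ones of largest change with the same direction in every dish, or, where fewer than 10 were called, those of smallest p with a mean of at least 6. Since no annotation pairs probe sets with genes here, the criterion of 1 gene symbol and the gene lists and cell type markers were not applied, and at most 2 rises and 2 falls are named per comparison unless 5 or fewer were called. Alternatives were quantile normalization, no pairing, own fits, a pooled spread, trend and robust moderation, a signal filter, array weights, levels averaged within a number, and leaving out replicates. Treated and control wells share a dish by the study's design, and the same replicate number was taken as the dish. As a check of that pairing, deviations from the group means were correlated between same-numbered arrays: the correlation was over 0.1 for 6 of 18 pairs, and for all 3 pairs in 0 of 6 comparisons, so the arrays themselves do not show it.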

Additional observations from a re-analysis of the deposited data

Results flagged for a closer look

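The effect of acetamide differed between its high and low levels for 5 probe sets by a test of the difference itself (limma, adjusted p under 0.05). High minus low was −2.18 for 1368733_at, −1.66 for 1393403_at, −1.62 for 1392449_at, −1.42 for 1389558_at and −1.33 for 1390534_at on the log2 scale. In all 5, the 3 low controls lay below the 3 high controls. For 1389558_at and 1392449_at the treated cultures also did not overlap, and all 3 were lower at the high than at the low level. For 1368733_at the treated means were 6.40 at the high and 6.21 at the low level, and the control means 6.93 and 4.56. For 1393403_at they were 6.19 and 5.88 in treated cultures and 6.88 and 4.91 in controls. For 1390534_at they were 4.08 and 4.18 in treated cultures and 4.56 and 3.34 in controls. None of the 5 stayed called without pairing, and why the low controls lay lower was not tested.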

How the results depend on the processing

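Precision was limited by 3 dishes a level. Of the named values, 471 kept their direction and their side of the threshold under an alternative, 60 lost the call, 10 gained it and 7 changed sign, and of the counts of calls 148 stayed within 1.5 times and 69 did not. The cause of these moves was not tested.

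The acetamide low count of 204 was 81 with no replicate block, 372 after quantile normalization, 712 with each compound in a fit of its own, 0 with the spread pooled over all 29 compounds, 113 with trend and robust moderation, 1055 with array weights and 0 to 605 without 1 replicate (0 without acetamide replicate 3, 1 without replicate 2). Against acetamide middle and high controls it was 2874, with 1388989_at at −0.51, 1388882_at at −0.70 and 1387391_at at 0.11, and against methylcarbamate middle and low controls 28, with 1388989_at at −0.16 and 1388882_at at −0.66. The count of 5 for acetamide high minus low was 0 with no replicate block, 18 after quantile normalization, 267 in a fit of its own, 0 with the pooled spread, 3 with trend, 19 at a mean of at least 5, 466 with array weights and 0 to 186 without 1 replicate.

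The 1 call of methylcarbamate averaged over levels was lost in a fit of its own (0) and with trend (0), and the count was 28 with array weights, 14 with levels averaged within a number and 0 to 2 without 1 replicate. Its probe set, 1392264_s_at, had an adjusted p of 0.141 with no replicate block. Acetamide averaged gave 1 call in a fit of its own and with array weights, 66 with levels averaged within a number and up to 2 without 1 replicate, and the difference of averages gave 10 with levels averaged within a number. Array weights gave 9 calls at methylcarbamate middle, 4992 at methylcarbamate low, 6 for methylcarbamate high minus low, and 412, 191 and 20 for the low, middle and high difference between the compounds. Methylcarbamate high gave 26 calls without replicate 3 and 52 without high dish 3, and methylcarbamate high minus low 3 and 42. The high difference between the compounds gave 1 without methylcarbamate replicate 1 or 3 or high dish 3, and the low difference 1 without replicate 3.

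Thioacetamide gave 9, 250 and 31 calls at its low, middle and high levels with no replicate block, 10 at its low level after quantile normalization, and 3 to 61, 111 to 458 and 12 to 159 without 1 replicate. With at least 3 compounds the shared lists held 1765 rises and 3889 falls. Without 1 replicate number, the acetamide difference was −0.117 to 0.0024 for beta-actin and −0.118 to 0.0097 for GAPDH.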
